A study of Rattus norvegicus with 9 samples.

Results

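The genes described here drive or mark cell division: 20 genes of mitosis and its kinases and 14 genes of DNA replication and of the entry into S phase. They were taken as a list of gene symbols, by name and not by a measured value, but the list was drawn up with earlier results of these data known. Of the 34 symbols, 32 (19 of mitosis and 13 of replication) matched a protein-coding gene among the 35360 genes of the count table, and all 32 passed the filter on low counts that left 15460 genes for testing. Ccnb2 and E2f1 matched no row under these names and are not analysed here. RNA came from the middle end of a femoral fracture in rats and was sequenced after capture of poly-A messenger RNA. There were 9 libraries in 3 groups of 3: an injectable gel alone, labelled as the control (Gel), the gel with the bisphosphonate called ALN (ALN gel), and the gel with a metal-organic framework made of magnesium and ALN (Mg-ALN gel). All 3 groups therefore share the fracture and the gel. The study's title speaks of osteoporotic fracture. The strain, sex, age, any treatment given to make the bone osteoporotic, the dose and the time after fracture were not given in the sources used here. The labels do not say whether each library is a separate animal.

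A dividing cell first copies its DNA and then separates the copies. In S phase the MCM helicase opens the double strand, the PCNA clamp holds the polymerases on it, and ribonucleotide reductase and thymidylate synthase supply the nucleotides. In mitosis the kinase CDK1 with its cyclins, the Aurora and Polo-like kinases, kinesin motors and kinetochore proteins build the spindle, and the anaphase-promoting complex ends the division by marking cyclins for destruction. In fractured bone the dividing cells are known to include the progenitors of the callus and of vessels, and the blood cell precursors of the marrow. Transcription of the replication genes is known to be driven by E2F factors in late G1, and that of the mitosis genes is known to peak in G2 and M through the DREAM and MMB-FOXM1 complexes, which act at a promoter element called CHR that often lies beside CCAAT boxes.

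These known rules can be read against the letters of the rat promoters. RefSeq promoter windows of assembly GRCr8, from 250 bases before to 50 bases after the gene start, were matched by symbol for 24 of the 32 genes, 15 of mitosis and 9 of replication. The windows were searched on both strands for the E2F words TTTCCCGC, TTTGGCGC, TTTCGCGC and TTTGCCGC, for the CHR words TTTGAA and TTCGAA and for CCAAT. An E2F word was in 6 of 9 replication promoters (66.7%) and in 1 of 15 mitosis promoters (6.67%), against 2.14% of all 33469 promoters in the table. A CHR word was in 9 of 15 mitosis promoters (60%) and 2 of 9 replication promoters (22.2%), against 19.7% of all. CCAAT was in 12 of 15 mitosis promoters (80%) and 6 of 9 replication promoters (66.7%), against 37.5% of all. CHR and CCAAT stood together in 8 of 15 mitosis promoters (53.3%), 1 of 9 replication promoters and 7.95% of all. A match is a description of the letters, not evidence of binding, and no match says only that these words are not in the window. The 120 bases before the start of 8 of these genes are printed to show the words nearest the start in the 2 sets, 5′ to 3′ on the gene's strand, with the matched words in capitals (ATTGG is CCAAT on the other strand). The first 4 are mitosis genes and carry CHR and CCAAT words.
Mki67 (chr1:199952594-199952713, minus strand): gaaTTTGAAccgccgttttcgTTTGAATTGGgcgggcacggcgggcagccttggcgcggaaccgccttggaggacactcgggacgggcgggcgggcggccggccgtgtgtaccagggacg
Cdk1 (chr20:19265173-19265292, plus strand): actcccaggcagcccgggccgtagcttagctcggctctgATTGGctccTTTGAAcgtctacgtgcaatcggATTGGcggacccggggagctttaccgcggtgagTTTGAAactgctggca
Cdc20 (chr5:137255800-137255919, minus strand): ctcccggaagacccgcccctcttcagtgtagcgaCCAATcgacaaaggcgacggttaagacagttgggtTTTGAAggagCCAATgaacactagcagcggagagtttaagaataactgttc
Kif23 (chr8:71320585-71320704, minus strand): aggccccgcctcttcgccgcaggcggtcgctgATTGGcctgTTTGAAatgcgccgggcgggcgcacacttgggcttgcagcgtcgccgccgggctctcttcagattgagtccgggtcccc
In Mki67 the second CHR word shares its last base with a reversed CCAAT box, so the capitals form 1 run. The next 4 are replication genes and carry E2F words.
Mcm2 (chr4:122918095-122918214, minus strand): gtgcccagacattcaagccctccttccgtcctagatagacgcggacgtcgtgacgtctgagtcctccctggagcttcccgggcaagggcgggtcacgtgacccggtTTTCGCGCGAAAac
Mcm5 (chr19:13488693-13488812, plus strand): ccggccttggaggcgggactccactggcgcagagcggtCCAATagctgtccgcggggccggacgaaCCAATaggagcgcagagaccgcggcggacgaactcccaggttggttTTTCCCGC
Mcm7 (chr12:22163179-22163298, minus strand): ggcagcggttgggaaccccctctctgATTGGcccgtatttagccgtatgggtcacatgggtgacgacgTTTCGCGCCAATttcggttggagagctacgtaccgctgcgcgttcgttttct
Tyms (chr9:120776084-120776203, minus strand): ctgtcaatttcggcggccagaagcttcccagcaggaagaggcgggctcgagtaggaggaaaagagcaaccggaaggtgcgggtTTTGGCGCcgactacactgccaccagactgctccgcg
In Mcm2 the E2F word is matched on both strands within 1 run of capitals, and in Mcm7 the E2F word and a CCAAT box share a base. The printed bases show a cleaner split than the whole windows. Outside them Cdk1 holds an E2F word at −133, counted from the gene start, and is the only mitosis gene with one. Mcm2 holds CHR words at −215 and −175 and Mcm7 holds one at −241, and these are the only 2 replication promoters with CHR.

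Values below are in CPM, the deposited read counts divided by a library size scaled with TMM, and the libraries of a group are always listed in the order 1, 2, 3. Fold changes are on the log2 scale and come from edgeR's quasi-likelihood test over all 9 libraries, with p-values adjusted by the Benjamini-Hochberg method over 15460 genes and called under 0.05. Between the 3 groups none of the 32 genes was called in any comparison. The background for that statement is that edgeR called 0 of 15460 genes (0%) when ALN gel was compared with Gel, when Mg-ALN gel was compared with ALN gel and with Gel, and in the joint test of the 3 groups. At an unadjusted p under 0.05 edgeR counted 1268 genes (8.2%), 1421 (9.19%), 1439 (9.31%) and 1437 (9.29%) in these 4 tests, and 0 of the 32 in each. DESeq2 called 135 genes (1.04%), 178 (1.16%), 51 (0.332%) and 242 (1.64%), and limma-voom with quality weights called 263 (1.7%), 2 (0.0129%), 0 and 28 (0.181%). Neither called any of the 32. The common biological coefficient of variation was 51.4%, and total counts were 13388689 to 18763270 per library.

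The levels of the cell division genes differed widely between the libraries of each group. Gel library 1, ALN gel library 1 and Mg-ALN gel libraries 2 and 3 each had 30 of the 32 genes above the gene's own median over the 9 libraries. The other 5 libraries had between 0 and 5 genes above it: 0 in Gel library 2, 2 in Gel library 3, 1 in ALN gel library 2, 0 in ALN gel library 3 and 5 in Mg-ALN gel library 1. Each group thus held both high and low libraries. Within Gel, library 1 was the highest of the 3 for 31 of 32 genes, where it was the highest for 43.7% of all tested genes. Within ALN gel, library 1 was again the highest for 31 of 32 genes, against 38.8% of all tested genes. In Mg-ALN gel the order was turned over, with library 1 the lowest for 28 of 32 genes, against 43.8% of all tested genes. The median SD within groups was 0.61 on the log2 CPM scale, and the median range of the 3 group means was 0.42. For 23 of the 32 genes (71.9%) the range of the group means was smaller than the SD within groups, and this held for 36.04% of all tested genes. Means of 3 libraries vary less than single libraries, so a range below the SD does not by itself measure how much the gels differ. The 32 genes tend to move together across samples, so the counts describe 1 shared pattern and not 32 separate ones.

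**Figure D1:**
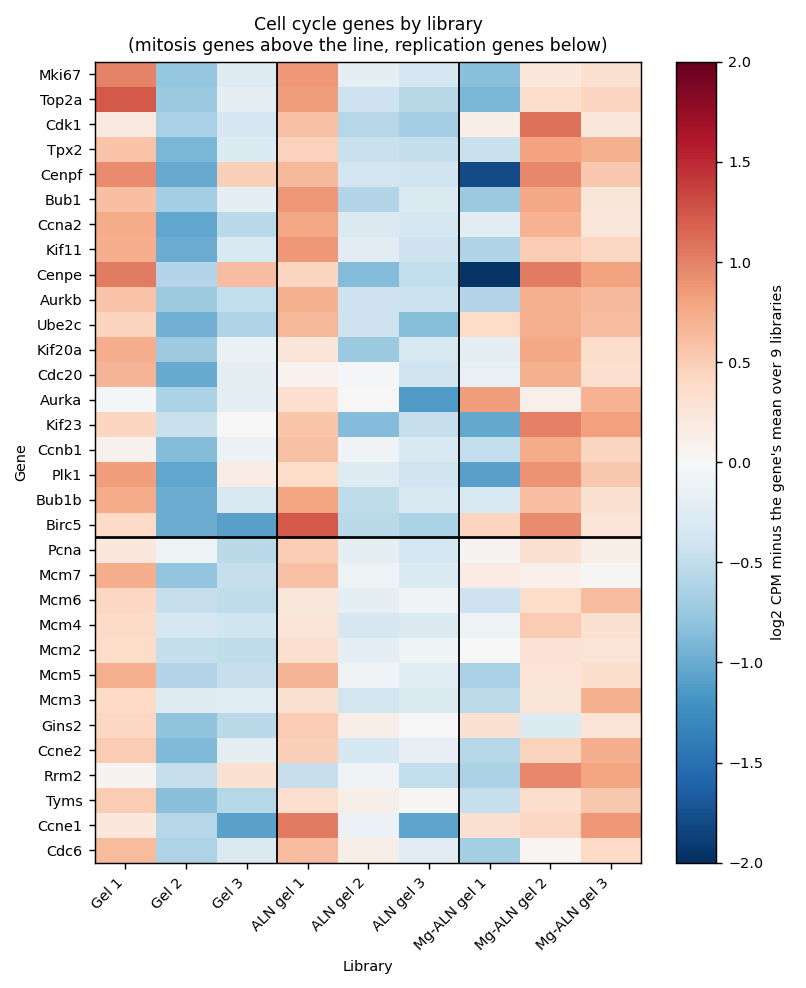
Log2 CPM of each of the 32 genes in each of the 9 libraries, minus the gene's mean over the libraries, with mitosis genes above the horizontal line, replication genes below it and vertical lines between the groups. Gel library 1, ALN gel library 1 and Mg-ALN gel libraries 2 and 3 are mostly red, with 30 of 32 genes above their median in each, and the other libraries are mostly blue.

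Mki67 encodes the Ki-67 protein, which coats chromosomes in mitosis and is the standard marker of cycling cells; the table places it at chr1:207993895-208020454 (genome build not given in the sources used here). It was read at 159, 46.6 and 67.02 CPM in Gel libraries 1, 2 and 3, 145, 70.8 and 63.6 CPM in the ALN gel libraries and 44.9, 92.3 and 98.9 CPM in the Mg-ALN gel libraries. The high libraries were Gel 1 and ALN gel 1, and all 3 groups overlapped. The log2 fold change was 0.04 (SE 0.52) for ALN gel against Gel and −0.24 (SE 0.52) for Mg-ALN gel against ALN gel. Top2a, the topoisomerase that untangles sister chromatids, lies at chr10:86901007-86932154 and was read at 141, 36.3 and 52.7 CPM in Gel libraries 1, 2 and 3, 109, 45.3 and 41.2 CPM in the ALN gel libraries and 32.1, 77.4 and 81.9 CPM in the Mg-ALN gel libraries. It repeated the pattern of Mki67, with a 4.41-fold span between the highest and the lowest library and a log2 fold change of −0.27 (SE 0.59) for Mg-ALN gel against Gel. Both genes had their highest library in Gel and their lowest in Mg-ALN gel.

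Cdk1, the kinase that starts mitosis, lies at chr20:20576377-20591549 and was read at 29.8, 16.8 and 20.8 CPM in Gel libraries 1, 2 and 3, 39.6, 17.8 and 16.4 CPM in the ALN gel libraries and 28.8, 56.5 and 30.9 CPM in the Mg-ALN gel libraries. Mg-ALN gel library 2 alone stood above the rest, and the ranges of the groups overlapped. The log2 fold change of Mg-ALN gel against Gel was 0.79 (SE 0.42, edgeR adjusted p = 0.561). Its mitotic partner Ccnb1, cyclin B1, was read at 15.7, 8.07 and 13.6 CPM in Gel, 21.95, 13.99 and 11.8 CPM in ALN gel and 10.4, 24.5 and 19.9 CPM in Mg-ALN gel. Ccna2, cyclin A2, which serves both S phase and mitosis, was read at 34.9, 10.2 and 14.4 CPM in Gel, 35.8, 17.1 and 16.4 CPM in ALN gel and 18.1, 33.7 and 24.5 CPM in Mg-ALN gel. Both cyclins were lowest in Gel library 2. The Ccna2 gene lies wholly within Exosc9 on the opposite strand over 6334 bases. This overlap, like those given below for Kif20a and Ccne2, is of whole gene spans with introns. Whether exons overlap was not checked. The protocol does not mention marking of the strand, so reads from any shared exon could not be told apart.

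Among the kinases, Aurka, the Aurora kinase of the spindle poles, had the lowest p-value of the 32 genes in the joint test (edgeR adjusted p = 0.567). It was read at 16.01, 10.5 and 14.2 CPM in Gel libraries 1, 2 and 3, 20.6, 16.4 and 7.41 CPM in the ALN gel libraries and 29.2, 17.6 and 26.4 CPM in the Mg-ALN gel libraries. Every Mg-ALN gel library stood above every Gel library, while ALN gel overlapped both groups. The log2 fold change of Mg-ALN gel was 0.85 (SE 0.38) against Gel and 0.72 (SE 0.38) against ALN gel, with edgeR adjusted p = 0.530 and 0.602. Aurka also departed from the library pattern, since Mg-ALN gel library 1, low for most of the list, was its highest library. Aurkb, the Aurora kinase that works at the centromere, was read at 26.7, 11.1 and 12.9 CPM in Gel, 29.6, 13.5 and 13.3 CPM in ALN gel and 11.98, 29.4 and 28.1 CPM in Mg-ALN gel. Birc5, survivin, is a subunit of the same chromosomal passenger complex and was read at 12.1, 4.63 and 4.33 CPM in Gel, 21.3, 6.27 and 5.89 CPM in ALN gel and 12.3, 17.7 and 10.99 CPM in Mg-ALN gel. Plk1, the Polo-like kinase of mitotic entry and spindle formation, was read at 24.5, 6.66 and 15.2 CPM in Gel, 17.6, 11.4 and 10.5 CPM in ALN gel and 6.46, 25.6 and 19.9 CPM in Mg-ALN gel. Aurkb and Plk1 were low in Mg-ALN gel library 1, and Birc5 was not.

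Bub1 and Bub1b, kinases of the checkpoint that holds anaphase until all chromosomes are attached, were read at 34.9, 14.4 and 20.00 CPM in Gel, 42.05, 15.4 and 18.9 CPM in ALN gel and 13.8, 39.3 and 27.2 CPM in Mg-ALN gel for Bub1 and at 20.1, 6.04 and 9.72 CPM in Gel, 20.9, 8.47 and 9.72 CPM in ALN gel and 9.62, 18.3 and 14.9 CPM in Mg-ALN gel for Bub1b. ALN gel library 1 was the highest of all 9 libraries for both. Cenpe, the kinesin of the kinetochore, was read at 33.5, 10.9 and 25.02 CPM in Gel, 21.9, 8.97 and 11.6 CPM in ALN gel and 4.18, 33.4 and 28.4 CPM in Mg-ALN gel. Cenpf, a large kinetochore protein, was read at 41.00, 10.6 and 29.7 CPM in Gel, 33.6, 16.4 and 16.2 CPM in ALN gel and 6.15, 41.5 and 31.1 CPM in Mg-ALN gel. These 2 genes spanned the widest range in the list, 8.01-fold for Cenpe and 6.75-fold for Cenpf between the highest and the lowest library. In both the lowest library was Mg-ALN gel 1, while the other libraries of that group were among the highest.

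Of the spindle motors, Kif11, which pushes spindle poles apart, was read at 32.95, 9.99 and 15.99 CPM in Gel, 36.2, 17.2 and 14.9 CPM in ALN gel and 13.01, 28.3 and 26.3 CPM in Mg-ALN gel. Kif23, a motor of the central spindle and of cytokinesis, was read at 19.4, 10.6 and 14.4 CPM in Gel, 21.3, 7.91 and 10.5 CPM in ALN gel and 7.09, 29.1 and 25.4 CPM in Mg-ALN gel. Kif20a, also of the central spindle, was read at 28.2, 10.4 and 15.5 CPM in Gel, 20.02, 10.2 and 13.6 CPM in ALN gel and 14.9, 29.1 and 21.7 CPM in Mg-ALN gel, but it shares 1910 bases with Cdc23 on the opposite strand. Tpx2, which activates Aurora A on spindle microtubules, was read at 34.9, 12.5 and 19.6 CPM in Gel, 32.4, 17.4 and 16.95 CPM in ALN gel and 17.3, 41.2 and 38.4 CPM in Mg-ALN gel. Gel library 2 held the lowest value for Kif11 and Tpx2, ALN gel library 2 for Kif20a and Mg-ALN gel library 1 for Kif23. The genes of the anaphase-promoting complex closed the list. Cdc20, its activator, was read at 27.05, 8.41 and 14.7 CPM in Gel, 17.6, 16.4 and 12.8 CPM in ALN gel and 15.2, 27.4 and 20.9 CPM in Mg-ALN gel. Ube2c, the ubiquitin-conjugating enzyme that works with it, was read at 22.9, 8.63 and 11.1 CPM in Gel, 26.7, 12.5 and 9.36 CPM in ALN gel and 21.8, 27.6 and 25.9 CPM in Mg-ALN gel, and its log2 fold change of Mg-ALN gel against Gel was 0.82 (SE 0.46, edgeR adjusted p = 0.575). For both genes the group ranges overlapped in every comparison.

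**Figure D2:**
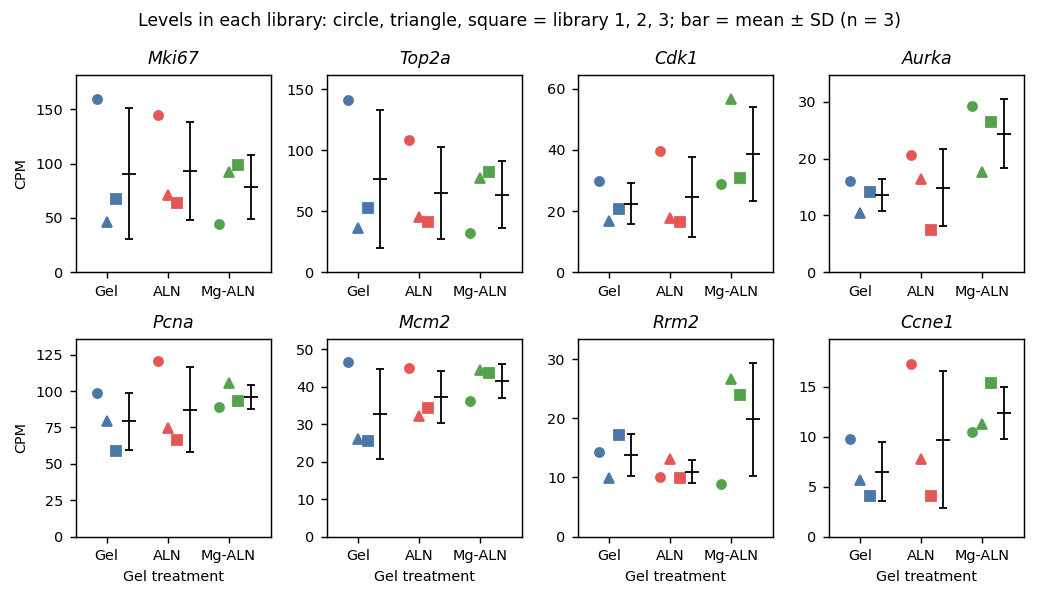
CPM of 4 mitosis genes (upper row) and 4 replication genes (lower row) in each library, with the group on the horizontal axis, symbols for libraries 1, 2 and 3, and bars for the group mean ± SD (n = 3). Library 1 is the highest of its group in Gel and ALN gel for Mki67, Top2a, Cdk1, Pcna and Mcm2, and in Mg-ALN gel it is the lowest of its group for all of these.

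The replication genes followed the same libraries with a smaller span. The median ratio of the highest to the lowest library was 2.49-fold for the 13 replication genes and 3.51-fold for the 19 mitosis genes, and it was 3.34-fold for all tested genes. Pcna, the sliding clamp, lies at chr3:124880698-124884570 and was read at 98.5, 79.7 and 59.00 CPM in Gel libraries 1, 2 and 3, 120.5, 74.3 and 66.6 CPM in the ALN gel libraries and 89.1, 105 and 93.4 CPM in the Mg-ALN gel libraries. Its group ranges overlapped, and the log2 fold change of Mg-ALN gel against Gel was 0.28 (SE 0.28). Compared per length by the FPKM values the authors deposited, Pcna had the highest level in the list, with a mean of 73.8 FPKM over the 9 libraries. Cdk1 came next with 19.8 FPKM, and the lowest means were those of Cenpe (2.54 FPKM), Cenpf (2.44 FPKM) and Cdc6 (2.22 FPKM). The lowest library of Pcna, at 50.9 FPKM, stood above the highest library of Cdk1, at 39.1 FPKM. Mki67, with the most reads among the mitosis genes, had a mean of 8.65 FPKM and ranked 14 of 32 per length.

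The 6 subunits of the MCM helicase, which unwinds DNA at the fork, were read in every library at 17.7 CPM or more. Mcm2, at chr4:120825699-120840111, was read at 46.8, 26.1 and 25.6 CPM in Gel libraries 1, 2 and 3, 45.2, 32.2 and 34.4 CPM in the ALN gel libraries and 36.3, 44.5 and 43.8 CPM in the Mg-ALN gel libraries. Gel 1 and ALN gel 1 were at the level of the highest Mg-ALN gel libraries, and the groups overlapped. Mcm5 was read at 45.7, 18.5 and 20.1 CPM in Gel, 44.6, 26.5 and 23.6 CPM in ALN gel and 17.7, 33.5 and 35.6 CPM in Mg-ALN gel, and Mcm7 at 65.4, 22.9 and 28.8 CPM in Gel, 59.04, 36.8 and 32.8 CPM in ALN gel and 44.1, 42.3 and 40.1 CPM in Mg-ALN gel. Both were highest in Gel library 1, and the Mg-ALN gel libraries of Mcm7 were close together. As group means ± SD (n = 3) in Gel, ALN gel and Mg-ALN gel, Mcm3 was at 26.8 ± 7.46, 25.2 ± 6.75, 31.3 ± 12.6 CPM, Mcm4 at 34.9 ± 11.2, 34.4 ± 8.19, 43.9 ± 9.09 CPM and Mcm6 at 35.2 ± 13.6, 38.3 ± 5.94, 45.6 ± 15.5 CPM. For all 6 subunits the absolute log2 fold changes in the 3 comparisons were at most 0.37, and each group's range overlapped that of the others. Gins2, a subunit of the GINS complex that joins the MCM ring in the active helicase, was read at 29.04, 12.5 and 14.9 CPM in Gel, 30.9, 23.9 and 21.6 CPM in ALN gel and 27.04, 18.05 and 26.2 CPM in Mg-ALN gel. It had the lowest p-value of the 32 genes for ALN gel against Gel, with a log2 fold change of 0.44 (SE 0.34, edgeR adjusted p = 0.788). Cdc6, which loads the helicase on origins, was read at 10.2, 4.29 and 5.39 CPM in Gel, 10.1, 7.15 and 5.71 CPM in ALN gel and 4.10, 6.79 and 8.70 CPM in Mg-ALN gel.

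Rrm2 and Tyms serve the supply of nucleotides. Rrm2, the regulated subunit of ribonucleotide reductase, was read at 14.4, 9.99 and 17.1 CPM in Gel libraries 1, 2 and 3, 10.01, 13.2 and 9.84 CPM in the ALN gel libraries and 8.91, 26.7 and 23.9 CPM in the Mg-ALN gel libraries. Mg-ALN gel libraries 2 and 3 stood above all other libraries, and library 1 of that group was the lowest of all 9. The log2 fold change of Mg-ALN gel against ALN gel was 0.85 (SE 0.41, edgeR adjusted p = 0.565), the lowest p-value of the list in that comparison. Rrm2 was the only one of the 32 genes for which Gel library 1 was not the highest Gel library, and likewise the only one for which ALN gel library 1 was not the highest ALN gel library. Tyms, thymidylate synthase, was read at 14.5, 5.70 and 6.90 CPM in Gel, 12.8, 11.1 and 10.4 CPM in ALN gel and 7.41, 12.98 and 14.9 CPM in Mg-ALN gel, with the lowest value in Gel library 2. The E cyclins, which bind CDK2 to start S phase, had mean levels per length of 4.76 FPKM for Ccne1 and 4.81 FPKM for Ccne2. Ccne1 was read at 9.75, 5.70 and 4.01 CPM in Gel libraries 1, 2 and 3, 17.3, 7.78 and 4.07 CPM in the ALN gel libraries and 10.5, 11.3 and 15.4 CPM in the Mg-ALN gel libraries. Each Mg-ALN gel library of Ccne1 stood above each Gel library, by a narrow margin between 10.5 and 9.75 CPM, while ALN gel ran across both. The log2 fold change against Gel was 0.93 (SE 0.54, edgeR adjusted p = 0.581). Ccne2 was read at 19.8, 7.56 and 12.3 CPM in Gel, 19.5, 10.98 and 12.5 CPM in ALN gel and 9.38, 19.1 and 23.2 CPM in Mg-ALN gel and shares 521 bases with Ints8 on the opposite strand.

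Aurka and Ccne1 were the only 2 of the 32 genes whose groups did not overlap in any comparison, both higher in Mg-ALN gel than in Gel. That is 2 of 32 against a background of 1509 of 15460 genes (9.76%) that were higher in Mg-ALN gel without overlap, so the share among the cell division genes was not above the background. Groups that did not overlap in either direction made up 16.1% of all tested genes for ALN gel and Gel, 16.5% for Mg-ALN gel and ALN gel and 18.3% for Mg-ALN gel and Gel, and the counts among the 32 were 0, 0 and 2.

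Most fold changes of Mg-ALN gel against the other groups were above 0 without passing the test. Against Gel, 15 of 19 mitosis genes and 12 of 13 replication genes had a positive log2 fold change, with medians of 0.34 for each set and −0.03 for all tested genes. Against ALN gel the positive counts were 16 of 19 and 9 of 13, with medians of 0.30 and 0.16, and −0.04 for all tested genes. For ALN gel against Gel they were 11 of 19 and 10 of 13, with medians of 0.12 and 0.14, and −0.001 for all tested genes. The comparisons share groups, so they do not support each other. The standard error of a single gene had a median of 0.51 for mitosis and 0.39 for replication genes in each comparison, which is not the error of a list's median. The adjusted p-values (edgeR) of the 32 genes began at 0.530 for Mg-ALN gel against Gel, at 0.565 against ALN gel and at 0.788 for ALN gel against Gel. As a score, the mean over the mitosis genes of log2 CPM centred on each gene averaged −0.14 ± 0.73 over the Gel libraries, −0.09 ± 0.62 over the ALN gel libraries and 0.23 ± 0.65 over the Mg-ALN gel libraries (SD, n = 3). The replication score was −0.18 ± 0.53, 0.01 ± 0.36 and 0.17 ± 0.37. The positive medians of ALN gel against Gel turned negative when single libraries were left out. They were −0.39 for mitosis and −0.16 for replication once ALN gel library 1 was left out. The values were −0.24 and −0.07 when Gel library 2 was omitted and −0.04 and −0.06 when Gel library 3 was omitted.

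The medians of Mg-ALN gel stayed above 0 whichever single library was left out, but their size rested on which libraries were kept. Against Gel, the mitosis median of 0.34 shrank to 0.0074 with Gel 2 omitted, to 0.18 with Gel 3 omitted and to 0.10 with Mg-ALN gel 2 omitted, and it grew to 0.79 when Gel 1 was dropped and 0.56 when Mg-ALN gel 1 was dropped. The replication median was 0.13, 0.18 and 0.18 in the fits lacking Gel 2, Gel 3 and Mg-ALN gel 3, and 0.68 in the fit lacking Gel 1. Against ALN gel, the mitosis median of 0.30 shrank to 0.11 with Mg-ALN gel 2 omitted and to 0.15 and 0.13 in the fits lacking ALN gel 2 and ALN gel 3, and it grew to 0.69 when ALN gel 1 was dropped and 0.62 when Mg-ALN gel 1 was dropped. The replication median of 0.16 shrank to 0.0056 in the fit lacking ALN gel 3, 0.011 in that lacking Mg-ALN gel 3 and 0.10 in that lacking ALN gel 2, and it grew to 0.38 and 0.29 when library 1 of ALN gel or of Mg-ALN gel was dropped. Limma-voom, whose quality weights were lowest for the libraries numbered 1 of the 3 groups, gave larger medians. They were 0.96 for mitosis and 0.66 for replication against Gel, and 0.81 and 0.35 against ALN gel. With the libraries numbered 1 left out together, edgeR gave mitosis medians of 1.03 against Gel and 1.07 against ALN gel, and replication medians of 0.74 and 0.51. None of the 32 genes was called in that fit, and the log2 fold changes of Mki67 and Top2a against ALN gel, negative over all 9 libraries, were 0.52 (SE 0.22) and 0.89 (SE 0.22), with edgeR adjusted p = 0.493 and 0.372. That omission was chosen after seeing that these libraries stood apart in the division genes, so its values describe the remaining 6 libraries and support no difference between the groups.

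**Figure D3:**
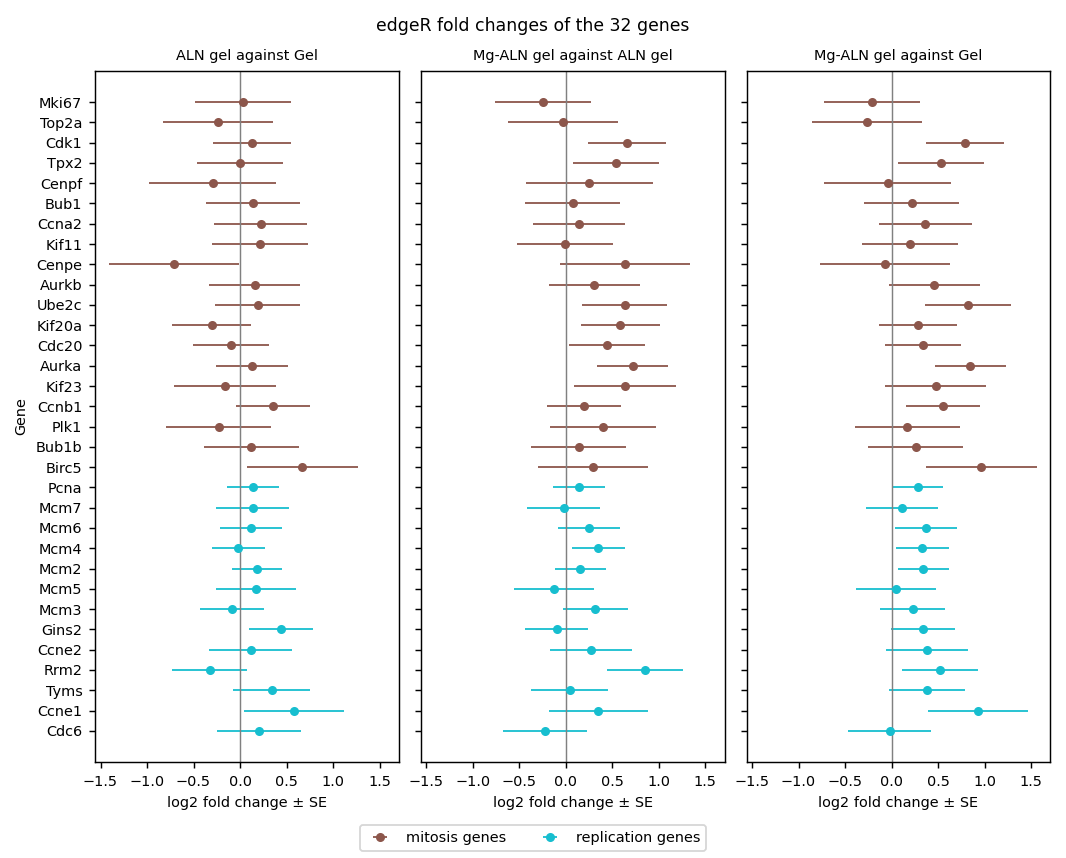
Log2 fold change ± SE (edgeR, all 9 libraries) of each of the 32 genes in the 3 comparisons, with mitosis and replication genes in 2 colours. Most points lie right of 0 for Mg-ALN gel against Gel (27 of 32), but the error bars are wide and no gene passed the test.

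The other genes of the cell cycle, in lists of their own, gave the same picture by library. The list of 48 other mitosis genes had scores of 0.61, −0.68 and −0.23 for Gel, 0.62, −0.28 and −0.40 for ALN gel and −0.71, 0.66 and 0.40 for Mg-ALN gel. For comparison, the 19 mitosis genes had 0.63, −0.83 and −0.21, then 0.62, −0.41 and −0.49, then −0.50, 0.72 and 0.47. The list of 36 other replication genes had 0.47, −0.52 and −0.47 for Gel, 0.67, −0.23 and −0.24 for ALN gel and −0.29, 0.36 and 0.26 for Mg-ALN gel. High and low libraries were thus the same in all of these lists. None of these 84 genes was called by edgeR in any comparison, and the medians of Mg-ALN gel against Gel were 0.26 (33 of 48 positive) and 0.31 (29 of 36 positive). Kif22, a chromosome-bound motor, was read at 24.3, 11.3 and 13.5 CPM in Gel, 34.5, 16.8 and 16.8 CPM in ALN gel and 29.4, 33.9 and 38.3 CPM in Mg-ALN gel, with each Mg-ALN gel library above each Gel library and a log2 fold change of 1.05 (SE 0.38, edgeR adjusted p = 0.530). Pbk, a mitotic kinase, was read at 10.2, 5.19 and 6.33 CPM in Gel, 10.4, 4.58 and 6.26 CPM in ALN gel and 8.51, 17.4 and 16.1 CPM in Mg-ALN gel, and Prc1, which bundles the microtubules of the central spindle, at 41.8, 21.7 and 35.1 CPM in Gel, 28.5, 23.6 and 25.6 CPM in ALN gel and 27.3, 70.2 and 45.4 CPM in Mg-ALN gel. Among the replication genes, Rfc4, a subunit of the loader that places PCNA on DNA, was read at 17.9, 10.3 and 12.5 CPM in Gel, 29.9, 23.9 and 15.9 CPM in ALN gel and 24.7, 23.3 and 19.4 CPM in Mg-ALN gel. Gmnn, geminin, which blocks a new round of origin loading, was read at 12.7, 9.08 and 6.21 CPM in Gel, 17.3, 5.58 and 7.53 CPM in ALN gel and 15.1, 16.1 and 20.7 CPM in Mg-ALN gel. Orc6, of the origin recognition complex, was read at 9.47, 4.63 and 3.51 CPM in Gel, 10.1, 7.15 and 5.41 CPM in ALN gel and 11.5, 12.4 and 7.24 CPM in Mg-ALN gel. These 6 were the genes of their lists with the smallest p in the joint test, and none of them passed it.

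Genes that set the entry into the cycle had scores of the same sign as the division genes in all libraries except ALN gel library 3, but closer to 0 than the mitosis scores. The list of 10 G1 cyclins, kinases and E2F activators had scores of 0.44, −0.23 and −0.20 for Gel, 0.19, −0.03 and 0.02 for ALN gel and −0.42, 0.06 and 0.18 for Mg-ALN gel. Ccnd1, cyclin D1, was read at 95.7, 44.1 and 71.1 CPM in Gel libraries 1, 2 and 3, 171, 117 and 174 CPM in the ALN gel libraries and 63.8, 143 and 116 CPM in the Mg-ALN gel libraries. Every ALN gel library stood above every Gel library, with a log2 fold change of 1.13 (SE 0.37, edgeR adjusted p = 0.536). Its partner kinase Cdk4 was read at 81.7, 75.7 and 70.7 CPM in Gel, 74.4, 85.7 and 79.1 CPM in ALN gel and 89.7, 112 and 90.95 CPM in Mg-ALN gel, each Mg-ALN gel library above all others, with a log2 fold change of 0.29 (SE 0.18) against ALN gel. The other partner, Cdk6, was read at 5.69, 4.57 and 3.76 CPM in Gel, 5.04, 4.96 and 8.02 CPM in ALN gel and 2.13, 3.87 and 3.30 CPM in Mg-ALN gel, and there each Mg-ALN gel library lay below each ALN gel library. None of the 10 was called by edgeR in any comparison.

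Among brakes of the cycle and targets of p53 some genes had groups that did not overlap, without a call by edgeR. In ALN gel against Gel this held for 35.7% of 14 brakes and 18.2% of 11 genes of p53 and its targets, and in Mg-ALN gel against ALN gel for 28.6% and 54.5%, beside the 16.1% and 16.5% of all tested genes. In Mg-ALN gel against Gel the shares were 7.14% of the brakes and 36.4% of the p53 genes, beside 18.3% of all tested genes. Cdkn1b, the CDK inhibitor p27, was read at 95.7, 56.6 and 57.4 CPM in Gel libraries 1, 2 and 3, 209.8, 120.4 and 107 CPM in the ALN gel libraries and 66.2, 73.1 and 82.95 CPM in the Mg-ALN gel libraries. All ALN gel libraries stood above those of both other groups, with log2 fold changes of 1.06 (SE 0.32) for ALN gel against Gel and −0.98 (SE 0.32) for Mg-ALN gel against ALN gel and edgeR adjusted p = 0.528 and 0.496. With limma-voom and quality weights the difference of ALN gel from Gel was called, at a log2 fold change of 1.08 (SE 0.21, adjusted p = 0.0465). Ccng1, cyclin G1, a transcriptional target of p53, was read at 197, 188 and 299.997 CPM in Gel libraries 1, 2 and 3, 512, 720.4 and 408 CPM in the ALN gel libraries and 104, 210.1 and 167 CPM in the Mg-ALN gel libraries. It too was higher in each ALN gel library than in any library of the other groups, with a log2 fold change of 1.26 (SE 0.34) against Gel and of −1.77 (SE 0.35) for Mg-ALN gel against it, and edgeR adjusted p = 0.528 and 0.454. DESeq2 called it for Mg-ALN gel against ALN gel, at −1.75 (SE 0.36, adjusted p = 9.00e-04). Mdm2, which marks p53 for destruction and is itself a p53 target, was read at 58.4, 48.01 and 45.5 CPM in Gel, 109.9, 73.1 and 75.8 CPM in ALN gel and 33.4, 57.00 and 51.8 CPM in Mg-ALN gel, again without overlap between ALN gel and the other groups. Btg2, an antiproliferative gene and p53 target, went the other way, with 74.9, 93.1 and 111 CPM in Gel, 64.9, 70.9 and 57.7 CPM in ALN gel and 95.9, 123 and 101 CPM in Mg-ALN gel. Cdkn1a, the CDK inhibitor p21, was read at 40.9, 114 and 59.7 CPM in Gel, 32.1, 37.3 and 46.2 CPM in ALN gel and 89.9, 51.5 and 52.5 CPM in Mg-ALN gel, and Phlda3, a p53 target that restrains AKT, at 36.7, 58.4 and 71.1 CPM in Gel, 27.2, 50.1 and 79.8 CPM in ALN gel and 131, 97.9 and 82.5 CPM in Mg-ALN gel. Both had their lowest library in ALN gel, and the targets of p53 named here did not share a direction. Over the lists, the median for Mg-ALN gel against ALN gel was −0.01 for 14 brakes (7 positive) and −0.38 for 11 genes of p53 and its targets (5 positive).

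Other measures of the libraries went with the cell division genes in some libraries and not in others, and their part in the result was not tested. The 8 osteoblast and bone markers summed to 16104 to 104695 CPM, most of it Col1a1, which was at 10756 CPM or more in every library. In Mg-ALN gel 2 Col1a1 was at 30834 CPM of a sum of 31103 CPM, and Ibsp was at 100 CPM, its lowest level. The score of these markers, formed as for the mitosis genes, was −2.48 there, the lowest of the 9 libraries. In bulk tissue fewer cells of a type and less RNA per cell cannot be told apart. The summed level of 11 B lineage markers was 361, 71.7 and 79.9 CPM in Gel, 322, 94.9 and 85.6 CPM in ALN gel and 58.4, 60.5 and 260.5 CPM in Mg-ALN gel. It was therefore high in 3 of the 4 libraries with high division genes. In the other one, Mg-ALN gel library 2, the B lineage markers Cd79b, Vpreb1, Igll1, Rag1, Rag2 and Ms4a1 had 0 reads. At that depth a count of 0 allows up to 0.178 CPM each. The mitosis score was the highest of the 9 libraries there. By summed CPM the 19 mitosis genes were at 690 CPM there, below 755 CPM in Gel 1 and 713 CPM in ALN gel 1. Of the markers at 0 in Mg-ALN gel 2, Rag2 was also at 0 in Gel library 3 and Mg-ALN gel library 1, and Vpreb1 in Mg-ALN gel library 1. Ebf1 and Blnk made up most of the B lineage sum in Mg-ALN gel 2, with 40.7 and 18.3 CPM of 60.5 CPM. In ALN gel 3 they were at 51.8 and 28.7 CPM of 85.6 CPM. The B lineage score, formed as for the mitosis genes, was −3.90 in Mg-ALN gel 2 and −1.07 in Mg-ALN gel 1, whose sums were alike. The 13 erythroid markers with a row summed to 8147, 1262 and 1675 CPM in Gel, 11337, 5549 and 2026 CPM in ALN gel and 8361, 637 and 8799 CPM in Mg-ALN gel. Of these Gata1 was at 0 in 8 of the 9 libraries, and Rhag and Hemgn were also at 0 in Mg-ALN gel library 2. The erythroid sum was high in Gel 1 and ALN gel 1 with the division genes, but it was also high in Mg-ALN gel 1, where they were low, and lowest in Mg-ALN gel 2, where they were high. The 10 markers of neutrophil precursors with a row summed to 91.2 to 286 CPM in Gel, 129 to 236 CPM in ALN gel and 382 to 511 CPM in Mg-ALN gel, and Mpo, Ctsg and Ms4a3 were at 0 in Mg-ALN gel library 2 and in no other library. Ltf was at 0 in 8 of the 9 libraries. In Mg-ALN gel 2 Lcn2 alone was at 377 CPM of the sum of 382 CPM, and Camp was at 1.19 CPM. The score of the 9 tested neutrophil markers was −3.71 there, the lowest of the 9 libraries. The 8 osteoclast markers summed to 17823, 4086 and 2098 CPM in Gel, 30924, 26755 and 21008 CPM in ALN gel and 3645, 10816 and 12073 CPM in Mg-ALN gel. Dcstamp was at 0 in 7 of the 9 libraries. The sum of osteoclast markers thus separated ALN gel from the other groups, which the division genes did not. Of the 7 tested markers, 57.1% did not overlap between ALN gel and Gel and 85.7% between Mg-ALN gel and ALN gel. The shares of all tested genes were 16.1% and 16.5%. Acp5 overlapped, with 6394 CPM in Gel 1 beside 5517 and 5363 CPM in ALN gel 2 and 3. None of the 7 was called by edgeR. The 5 endothelial markers with a row summed to 402, 414 and 575 CPM in Gel, 232, 288 and 597 CPM in ALN gel and 444, 804 and 596 CPM in Mg-ALN gel. Like most division genes they had positive log2 fold changes for Mg-ALN gel, 5 of 5 against Gel (median 0.52) and 5 of 5 against ALN gel (median 0.63), and none was called by edgeR. Their sum was highest in Mg-ALN gel 2, where the mitosis score was highest too, but lowest in ALN gel 1, where the division genes were high. Fold changes of Mg-ALN gel against Gel were also positive for 9 of 9 tested neutrophil markers (median 1.69) and 10 of 12 erythroid markers (median 0.91). They were positive for only 1 of 11 B lineage markers and 3 of 7 osteoclast markers. Against ALN gel the positive counts of these 4 lists were 6, 1, 1 and 0. The 6 skeletal muscle markers with a row summed to 56.5, 74.9 and 6799 CPM in Gel, 1728, 54.5 and 1172 CPM in ALN gel and 214, 106 and 8.83 CPM in Mg-ALN gel. The 8 chondrocyte markers summed to 808 to 1906 CPM in Gel, 381 to 1373 CPM in ALN gel and 588 to 704 CPM in Mg-ALN gel. Of these Matn1 was at 0 in 8 of the 9 libraries. Col9a1 and Col10a1 were at 0 in Gel 2 and Mg-ALN gel 1, and Col10a1 also in Mg-ALN gel 2. Col11a1 had the highest mean level of these markers, with 1730 CPM in Gel 1 and 733 CPM in Gel 2. Against Gel the fold changes of Mg-ALN gel were negative for 6 of 6 muscle markers (median −3.94), 7 of 7 tested chondrocyte markers (median −0.90) and 8 of 8 osteoblast and bone markers (median −1.06), with no call by edgeR. The mitochondrial share of reads was 17.5%, 5.40% and 4.16% for Gel, 39.5%, 15.6% and 7.61% for ALN gel and 11.2%, 10.6% and 31.6% for Mg-ALN gel.

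**Figure D4:**
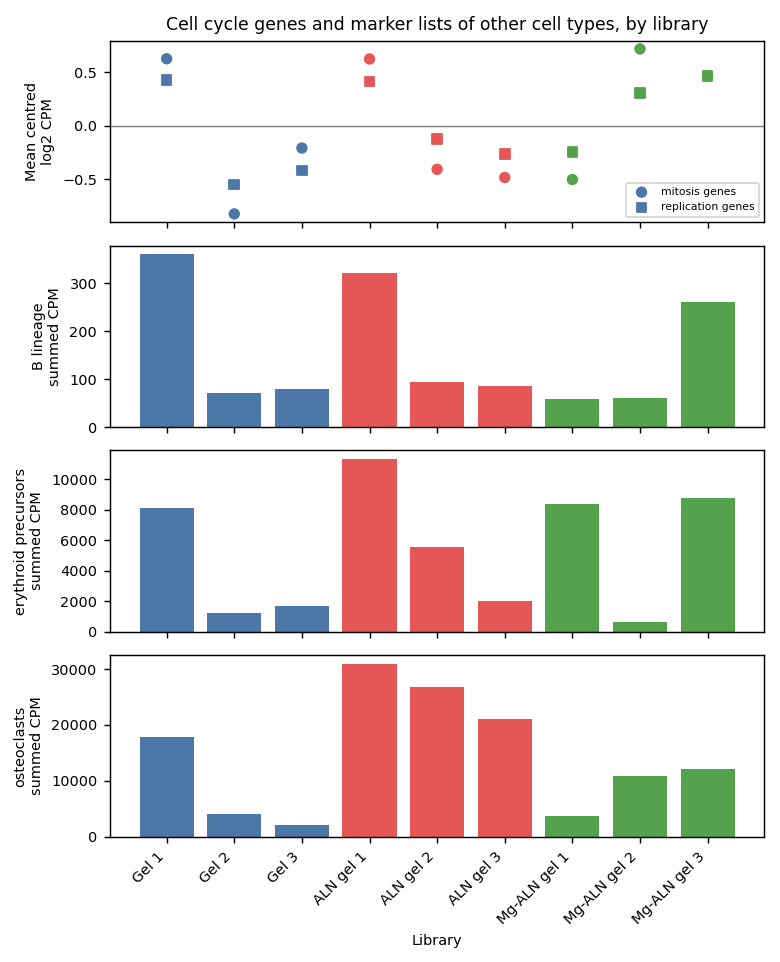
By library, from top to bottom, the mean centred log2 CPM of the mitosis genes (circles) and replication genes (squares), which coincide in Mg-ALN gel 3, and the summed CPM of B lineage, erythroid and osteoclast markers, with colours for the 3 groups. B lineage and erythroid sums are high with the division genes in Gel 1, ALN gel 1 and Mg-ALN gel 3 and low in Mg-ALN gel 2, where the division genes are high. The erythroid sum is also at 8361 CPM in Mg-ALN gel 1 and 5549 CPM in ALN gel 2, where the division genes are low.

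In Mg-ALN gel library 1 the longer mitosis genes tended to be lower, with exceptions. The deviation of that library from the mean of the other libraries of its group was more negative for longer genes, by the gene length in the deposited table, with Spearman's rho of −0.67 over the 19 mitosis genes, 0.19 over the 13 replication genes and −0.29 over all 15460 tested genes. These are correlations across genes of 1 library, which share its depth and RNA, and are given as a description. Cenpf, with a length of 10069 bases, deviated by −2.54 on the log2 scale, and Cenpe, with 7621 bases, by −2.87. Mki67, with 9880 bases, deviated by −1.09. The short genes Birc5 (873 bases) and Pcna (1160 bases) deviated by only −0.18 and −0.16. Length did not order all of them. Kif23, with 3368 bases, and Plk1, with 2237 bases, deviated by −1.93 and −1.80, below the longer Mki67. Among the replication genes Gins2, with 4192 bases, deviated by 0.31, and Rrm2, with 1173 bases, by −1.50. A negative rho over the mitosis genes was not confined to Mg-ALN gel 1. In libraries 1, 2 and 3 it was 0.20, −0.52 and −0.011 for Gel, 0.19, −0.33 and 0.18 for ALN gel and −0.67, 0.10 and 0.72 for Mg-ALN gel. The deviations of the 3 libraries of a group sum to 0 for each gene, so a rho in one library is mirrored in the others, and the 9 values are not independent. Among all tested genes at least as long as Gins2, the mean deviation of Mg-ALN gel 1 was −0.61, and among those no longer than 2191 bases it was 0.06. The 8 longest of the 32 genes had a mean deviation there of −1.38 and the 8 shortest one of −0.67, so the short genes were also below the other libraries. Limma-voom gave Mg-ALN gel 1 the lowest quality weight, 0.275, followed by Gel 1 with 0.444 and ALN gel 1 with 0.510.

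**Figure D5:**
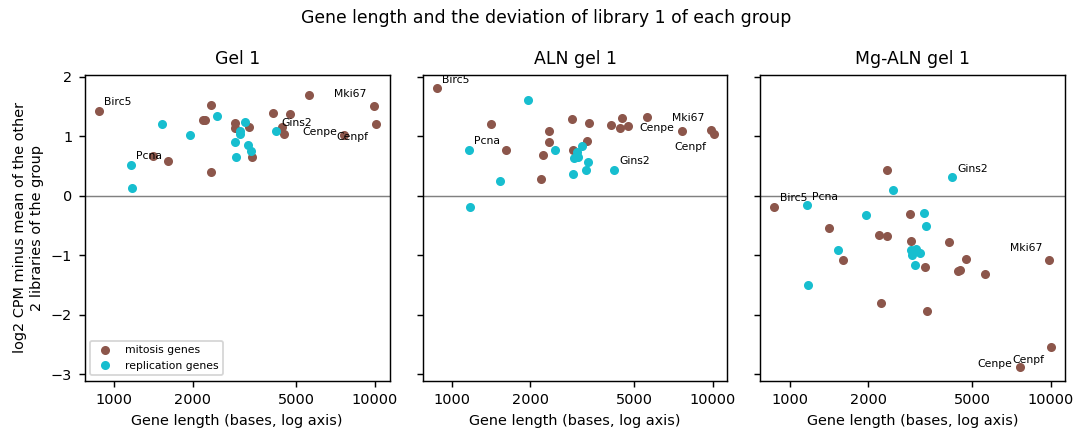
Deviation of library 1 of each group from the mean of the other 2 libraries of that group (log2 CPM, vertical axis) against gene length in bases (log axis) for the 32 genes. In Mg-ALN gel 1 Cenpf and Cenpe lie lowest, at −2.54 and −2.87, while all genes lie above 0 in Gel 1, and all except Rrm2 in ALN gel 1.

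Mitosis and replication genes did not shift by the same amount in each library. The mitosis score minus the replication score was 0.20, −0.27 and 0.21 for Gel, 0.21, −0.29 and −0.22 for ALN gel and −0.26, 0.41 and 0.00 for Mg-ALN gel. The difference was positive in both libraries numbered 1 of Gel and ALN gel and in Mg-ALN gel 2, where both scores were high, and negative in most of the low libraries, with Gel 3 as the exception. The mitosis genes thus had the wider span across libraries.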

How the data were processed

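The authors deposited read counts per gene as whole numbers, not normalized, and FPKM values, which were used only to compare levels between genes; the gene length came from the same deposited table. Per the submitters' processing notes, the tools were edgeR 3.22.5, DESeq2 1.20.0, featureCounts 1.5.0-p3, HISAT2 2.0.5, StringTie 1.3.3b and fastp, with no role given; the genome build and the strand setting are not given in the sources used here. Groups and replicate numbers came from the sample titles. For the tests, edgeR 4.0.16 under R 4.3.3 was used (TMM scaling, filterByExpr defaults, 1 quasi-likelihood fit over all 9 libraries with a coefficient per group, two-sided tests), with limma 3.58.1 and DESeq2 1.42.0 as alternatives. Standard errors were derived as the size of the log2 fold change over the root of the F statistic, and log2 CPM has a prior count of 0.5. The limit given beside a count of 0 is 3 reads and covers counting error only. The fit was tested on simulated data. Libraries of a group differed by far more than sampling noise (chi-square per degree of freedom at least 72.3), so all were kept. The labels do not say that replicates are separate animals, so p-values measure only how far these samples differ, which can be technical. Deviations of same-numbered libraries from their group means correlated with r = 0.341, 0.419 and 0.226 between Gel and ALN gel, which pairs the numbers of these groups by the rule used (each over 0.1, from the data and not from the labels). Mg-ALN gel showed r = 0.130, −0.120 and −0.127 with ALN gel and r = −0.0767, −0.0452 and −0.199 with Gel, so its numbers were not taken as pairs. The members and lists were chosen with earlier results of these data known, so no test over a list was made. Named genes were all members, and of each other cell cycle list the up to 3 genes with the smallest p in the joint test and a mean of at least 2 CPM, plus Cdkn1a. The markers at 0 were named after their values were seen. Alternatives were RLE scaling, no filter on low counts, DESeq2, limma-voom with quality weights, the replicate number as a block, the mitochondrial share as a covariate, a fit of only the groups compared, and leaving out each library. Leaving out the libraries numbered 1 of all groups together was added after seeing the data.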

Additional observations from a re-analysis of the deposited data

How the results depend on the processing

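None of the 32 genes was called in any comparison under any of the alternatives run, planned or added. With the replicate block the medians were 0.09, 0.48 and 0.49 for mitosis genes and 0.20, 0.20 and 0.40 for replication genes. They are given for ALN gel with Gel, Mg-ALN gel with ALN gel and Mg-ALN gel with Gel. The block changed no call of a member. It was fitted to all libraries, also to those of Mg-ALN gel, whose numbers were not taken as pairs. The main fit had no block, also for ALN gel against Gel. The count of all genes called by edgeR, 0 in each test, became 135, 178, 51 and 242 in the 3 comparisons and the joint test with DESeq2, and 263, 2, 0 and 28 with limma-voom and quality weights. Leaving out single libraries gave 0 to 1 called genes in ALN gel against Gel and in the joint test, the 1 without ALN gel library 3, and 0 in the other comparisons. The cause was not tested. Across single libraries left out, the mitosis medians ran from −0.39 to 0.54, from 0.11 to 0.69 and from 0.01 to 0.79, and the replication medians from −0.16 to 0.53, from 0.01 to 0.38 and from 0.13 to 0.68. The lowest mitosis median of Mg-ALN gel against Gel was that without Gel library 2, and the highest, 0.79, that without Gel library 1. In the same order of comparisons, limma-voom with quality weights gave mitosis medians of 0.19, 0.81 and 0.96 and replication medians of 0.32, 0.35 and 0.66. With the mitochondrial share in the model they were −0.34, 0.52 and 0.19 for mitosis and −0.17, 0.27 and 0.18 for replication genes. With the libraries numbered 1 of all 3 groups left out together, an alternative chosen after seeing the data, they were 0.05, 1.07 and 1.03 for mitosis and 0.31, 0.51 and 0.74 for replication genes, and edgeR called 3, 0 and 0 of all genes and 0 in the joint test. The log2 fold change of 27, 15 and 13 of the 32 genes changed sign under at least 1 alternative in the 3 comparisons. With 3 libraries a group and a biological coefficient of variation of 51.4%, a p that missed the threshold does not show that the groups were alike.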
